A study of Mus musculus with 22 samples.

Results

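The 8 genes described here encode transcription factors and a co-repressor that mark the layers of the mouse cerebral cortex. They were taken by symbol as the rows Cux2, Rorb, Fezf2, Etv1, Bcl11b, Tle4, Foxp2 and Tbr1 of a table of read counts for 55385 genes, and each symbol matched 1 row. Levels were measured by RNA sequencing of the entorhinal cortex (EC) and the hippocampus (HIP) of 11 mice of the Ts66Yah line, a model of Down syndrome. The comparisons ask whether the layer identity genes differed between trisomic and control mice, between the regions, and in their balance from library to library.

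Ts66Yah mice carry an extra, freely segregating minichromosome with the distal part of mouse chromosome 16 from Mir155 to the telomere, so that those genes are present in 3 copies. The line was derived from Ts65Dn by removing the part of chromosome 17 that Ts65Dn also carries, and it descends from 1 founder. All mice were males aged 5 to 6 months on the mixed B6C3B background, 6 of them Ts66Yah and 5 of them wild-type (wt) littermates. Each mouse gave 1 EC and 1 HIP library, which makes 22 libraries in 4 groups (wt EC, Ts66Yah EC, wt HIP and Ts66Yah HIP). No member lies in the segment with 3 copies. The tissue was dissected and not sorted, so a bulk library cannot tell fewer cells of a type from less RNA per cell.

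The neocortex and the neighbouring entorhinal cortex are built of layers of projection neurons, and each layer sends its axons to its own targets. In the neocortex, upper layer neurons connect cortical areas, and layer 5 neurons reach subcortical targets such as the brainstem and striatum. Layer 6 neurons of the neocortex project mainly to the thalamus. A small group of regulators sets these identities during development by repressing one another, and several of them stay on in adult neurons. The hippocampus is a simpler cortex without these layers, although its pyramidal and granule cells use some of the same regulators.

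Among the upper layer genes, Cux2 is a homeodomain factor of the upper layers and Rorb is an orphan nuclear receptor of neocortical layer 4. The layer 5 genes were Fezf2, a zinc finger selector of subcerebral projection neurons, Etv1, an ETS factor of layer 5 neurons, and Bcl11b, also called Ctip2, a zinc finger factor that acts downstream of Fezf2 and is also present in hippocampal neurons. The layer 6 genes were Tle4, a Groucho-family co-repressor of corticothalamic neurons, Foxp2, a forkhead factor of layer 6 and of striatal neurons, and Tbr1, a T-box factor of early born deep layer neurons. In GENCODE M21 (GRCm38) the genes lie at chr5:121856366-122050102 (Cux2), chr19:18930605-19111196 (Rorb), chr14:12342094-12348189 (Fezf2), chr12:38779380-38870484 (Etv1), chr12:107910403-108003602 (Bcl11b), chr19:14448150-14598051 (Tle4), chr6:14901349-15441977 (Foxp2) and chr2:61802930-61814114 (Tbr1). Etv1, Foxp2 and Tbr1 are on the plus strand and the other 5 on the minus strand, and all 8 are protein coding. Reads over annotated exons were counted, and no exon of a member overlaps an exon of another annotated gene.

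RefSeq promoter windows were at hand for 7 of the 8 members and not for Foxp2. The 250 bases before the gene start are printed for Rorb and Tle4, whose windows lie wholly outside the GENCODE gene. These 2 windows were picked by that position and not by the levels of the genes. Both lie on the minus strand of GRCm38.p6, the Rorb window at chr19:19111197-19111446 and the Tle4 window at chr19:14598184-14598433. Both read 5′ to 3′ on the gene's strand, and capitals mark CG dinucleotides.
Rorb: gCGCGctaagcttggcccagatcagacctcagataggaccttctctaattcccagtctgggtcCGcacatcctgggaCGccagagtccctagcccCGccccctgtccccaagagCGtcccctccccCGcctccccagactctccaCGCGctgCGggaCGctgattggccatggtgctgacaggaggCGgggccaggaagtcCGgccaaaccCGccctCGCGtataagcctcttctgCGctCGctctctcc
Tle4: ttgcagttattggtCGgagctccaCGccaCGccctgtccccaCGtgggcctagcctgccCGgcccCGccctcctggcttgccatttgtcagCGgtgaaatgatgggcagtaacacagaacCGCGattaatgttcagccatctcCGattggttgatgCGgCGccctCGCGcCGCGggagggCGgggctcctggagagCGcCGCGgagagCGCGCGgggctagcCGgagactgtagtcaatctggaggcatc
The Rorb window held 18 CG dinucleotides and the Tle4 window 24. Counts at least this high were found in 21.7% and 12% of the 32851 windows of the table, whose median was 6. The other windows ranged from 5 in Tbr1 to 40 in Cux2. The E-box CANNTG, the letters read by basic helix-loop-helix factors and the same on both strands, occurred at least once in the windows of 3 of the 7 members (Cux2, Tle4 and Tbr1) and in 66.2% of all windows. These counts describe the letters only.

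The libraries held 25900479 to 50105778 counted reads, and the members had from 42 (Foxp2) to 7876 (Bcl11b) reads in a library. Of the protein-coding genes from Mir155 to Zbtb21, 76 of 78 tested in the EC and 80 of 83 tested in the HIP were higher in Ts66Yah, with median folds of 1.49 and 1.5. Summed levels of 7 dentate granule cell markers were 344 to 446 CPM (counts scaled to a common library size) in the HIP libraries and 88.4 to 146 CPM in the EC libraries, and those of 9 pyramidal cell markers of the CA fields were 1822 to 2324 CPM and 1313 to 1611 CPM. The EC libraries of wt replicate 2 and Ts66Yah replicate 6 stood apart in striatal markers. In them Adora2a, a receptor of striatal projection neurons, was at 22.7 and 8.14 CPM and at 2.80 CPM or less in the other 9 EC libraries. Of 10 striatal markers, 9 and 5 were above all of those 9 libraries, and their summed level was 516 and 326 CPM, against 255 to 303 CPM in the others. Results in the EC were therefore also computed without these 2 libraries.

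The members of each deep layer differed among themselves between the regions. Cux2, Rorb, Foxp2 and Tbr1 were higher in the EC, Bcl11b was higher in the HIP, and Fezf2, Etv1 and Tle4 did not pass the test. The plot of levels by library shows each gene in the 4 groups.

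**Figure D1:**
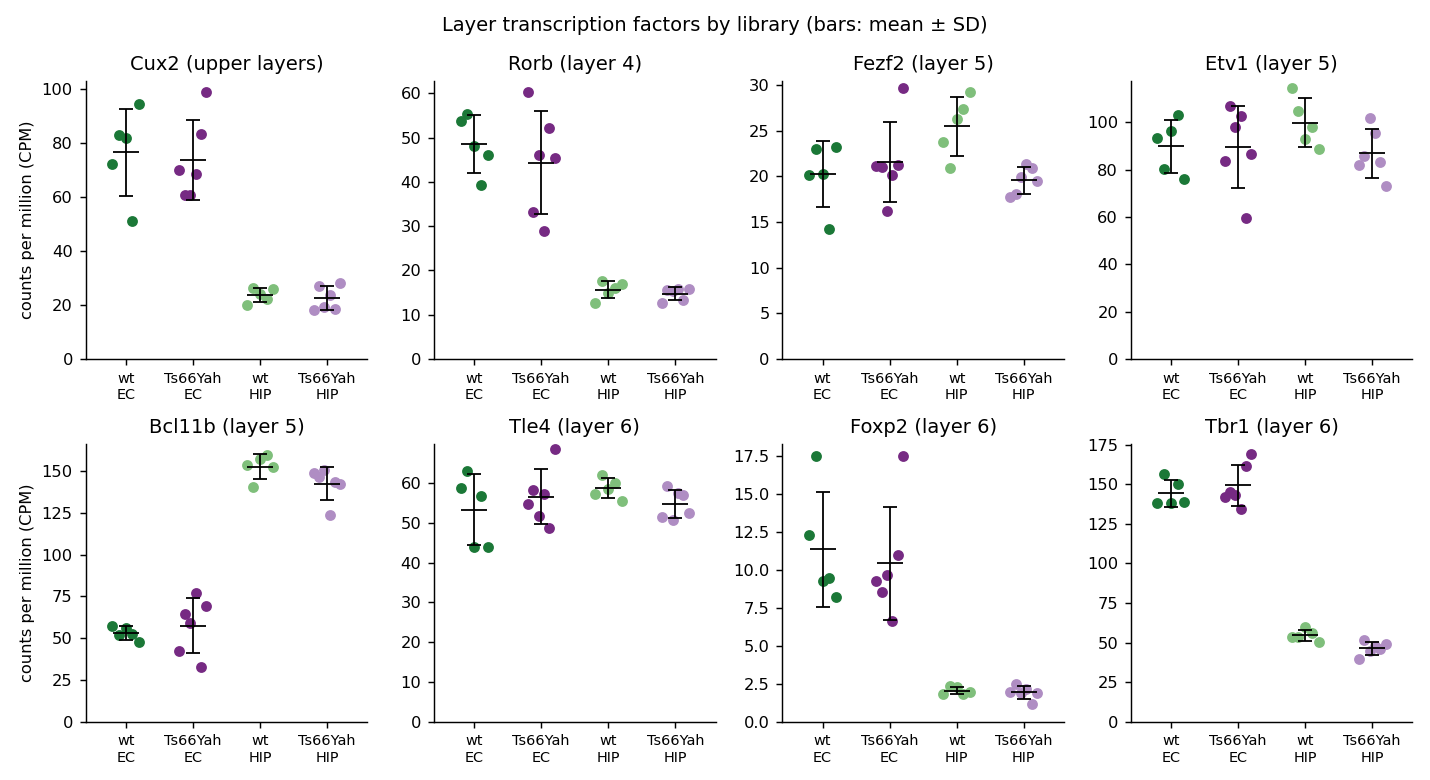
Level of each member (vertical axis, CPM from 0) in every library of the 4 groups, 1 point per library, with the group mean ± SD as a bar. Cux2, Rorb, Foxp2 and Tbr1 sit higher in the EC than in the HIP in every library, Bcl11b sits lower, and wt and Ts66Yah points overlap in each region for all 8 genes.

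Cux2 was at 72.1, 83.1, 81.8, 51.1 and 94.4 CPM in the wt EC libraries (replicates 1 to 5) and at 20.0, 26.4, 24.1, 22.4 and 26.1 CPM in the wt HIP libraries. In Ts66Yah it ranged from 60.6 to 98.9 CPM in the EC (median 69.3) and from 18.3 to 28 CPM in the HIP (median 21.5). Every EC library was above every HIP library in both genotypes. The EC level was 3.25-fold higher in wt (log2 fold change 1.70 ± 0.14 SE, adjusted p = 6.9e-07) and 3.28-fold higher in Ts66Yah (1.71 ± 0.14, adjusted p = 1.93e-07).

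Rorb behaved likewise. Its wt EC libraries held 53.8, 55.4, 48.2, 39.3 and 45.9 CPM and its wt HIP libraries 12.8, 17.7, 15, 16 and 17 CPM. In Ts66Yah the EC range was 29.0 to 60.4 CPM (median 45.8) and the HIP range 12.6 to 15.9 CPM (median 15.4). The lowest EC library, Ts66Yah replicate 4, was still above the highest HIP library. The EC level was 3.13-fold higher in wt (1.65 ± 0.11, adjusted p = 1.18e-07) and 3.0-fold higher in Ts66Yah (1.59 ± 0.15, adjusted p = 5.92e-07).

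Of the layer 5 genes, Bcl11b went the other way. It was at 57.3, 52.1, 56.3, 52.2 and 47.5 CPM in the wt EC and at 153, 140, 158, 159 and 152 CPM in the wt HIP. In Ts66Yah it ran from 32.9 to 76.8 CPM in the EC (median 61.8) and from 124 to 151 CPM in the HIP (median 145). The regions did not overlap in either genotype, and the HIP level was 2.83-fold higher in wt (log2 fold change, EC over HIP, -1.50 ± 0.07, adjusted p = 3.23e-09) and 2.47-fold higher in Ts66Yah (-1.31 ± 0.16, adjusted p = 8.93e-06).

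Fezf2 was at 20.2, 23.0, 20.3, 14.3 and 23.3 CPM in the wt EC and at 23.7, 20.9, 26.3, 27.3 and 29.2 CPM in the wt HIP. In Ts66Yah it was at 16.2 to 29.7 CPM in the EC (median 21.1) and at 17.7 to 21.3 CPM in the HIP (median 19.7). The regions overlapped in both genotypes. The log2 fold change, EC over HIP, was -0.32 ± 0.13 in wt (adjusted p = 0.054) and 0.14 ± 0.11 in Ts66Yah (adjusted p = 0.325). With the mouse as a block the wt difference reached an adjusted p of 0.044, and over 15 alternatives its adjusted p ran from 0.0262 to 0.125.

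Etv1 had nearly the same level in both regions. The wt EC libraries held 93.5, 80.3, 96.3, 103 and 76.0 CPM and the wt HIP libraries 115, 105, 93.0, 98.2 and 88.9 CPM. The Ts66Yah ranges were 59.7 to 107 CPM in the EC (median 92.4) and 73.3 to 102 CPM in the HIP (median 84.5). The log2 fold change was -0.13 in wt (95% confidence interval -0.35 to 0.08, adjusted p = 0.288) and 0.05 in Ts66Yah (-0.21 to 0.30, adjusted p = 0.772), so differences inside these intervals were not resolved.

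The layer 6 genes divided as well. Foxp2 was at 12.3, 17.5, 9.26, 9.45 and 8.21 CPM in the wt EC and at 1.86, 2.33, 2.28, 1.85 and 1.93 CPM in the wt HIP. In Ts66Yah it was at 6.65 to 17.5 CPM in the EC (median 9.46) and at 1.18 to 2.51 CPM in the HIP (median 1.94). No HIP library reached the lowest EC library.

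The EC level of Foxp2 was 5.58-fold higher in wt (2.48 ± 0.20, adjusted p = 8.38e-07) and 5.40-fold higher in Ts66Yah (2.43 ± 0.22, adjusted p = 4.4e-07), the largest difference among the members in both genotypes. The highest EC library of each genotype was the one with raised Adora2a, and Foxp2 spanned 6.65 to 12.3 CPM in the other 9. Without these libraries the log2 fold change was 2.28 in wt and 2.23 in Ts66Yah, each with an adjusted p under 0.05.

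Tbr1 was at 138, 156, 138, 150 and 138 CPM in the wt EC and at 53.4, 53.4, 59.8, 55.9 and 50.4 CPM in the wt HIP. The Ts66Yah ranges were 134 to 169 CPM in the EC (median 144) and 39.7 to 51.4 CPM in the HIP (median 46.8). The regions were far apart in every mouse. The EC level was 2.68-fold higher in wt (1.42 ± 0.06, adjusted p = 3.39e-09) and 3.21-fold higher in Ts66Yah (1.68 ± 0.07, adjusted p = 3.76e-10).

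Tle4 did not separate the regions. It was at 58.7, 63.2, 43.8, 56.8 and 44.0 CPM in the wt EC and at 57.1, 62.2, 58.6, 59.9 and 55.6 CPM in the wt HIP. In Ts66Yah it was at 48.8 to 68.7 CPM in the EC (median 56.0) and at 50.8 to 59.2 CPM in the HIP (median 54.7). The log2 fold change was -0.12 in wt (95% confidence interval -0.35 to 0.11, adjusted p = 0.383) and 0.05 in Ts66Yah (-0.12 to 0.21, adjusted p = 0.625).

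In all, 5 of 8 members were called between the regions in wt, where 47.7% of the 17935 genes tested were called. In Ts66Yah the same 5 were called, against 54.0% of 18043 genes. Higher in the EC were 4 members in each genotype, beside 23.4% of genes in wt and 26.4% in Ts66Yah. Higher in the HIP was 1 member, beside 24.3% and 27.5%. The 5 genes were also those whose EC and HIP libraries did not overlap, which held for 35.0% of genes in wt and 32.1% in Ts66Yah. The 5 of 8 called in either direction stood near the shares of all genes called, while the 4 of 8 higher in the EC and the 5 of 8 without overlap were above their backgrounds, and neither excess was tested. The members' median log2 fold change was 0.65 in wt and 0.86 in Ts66Yah, and over all genes tested it was 0.01 and 0.0055.

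**Figure D2:**
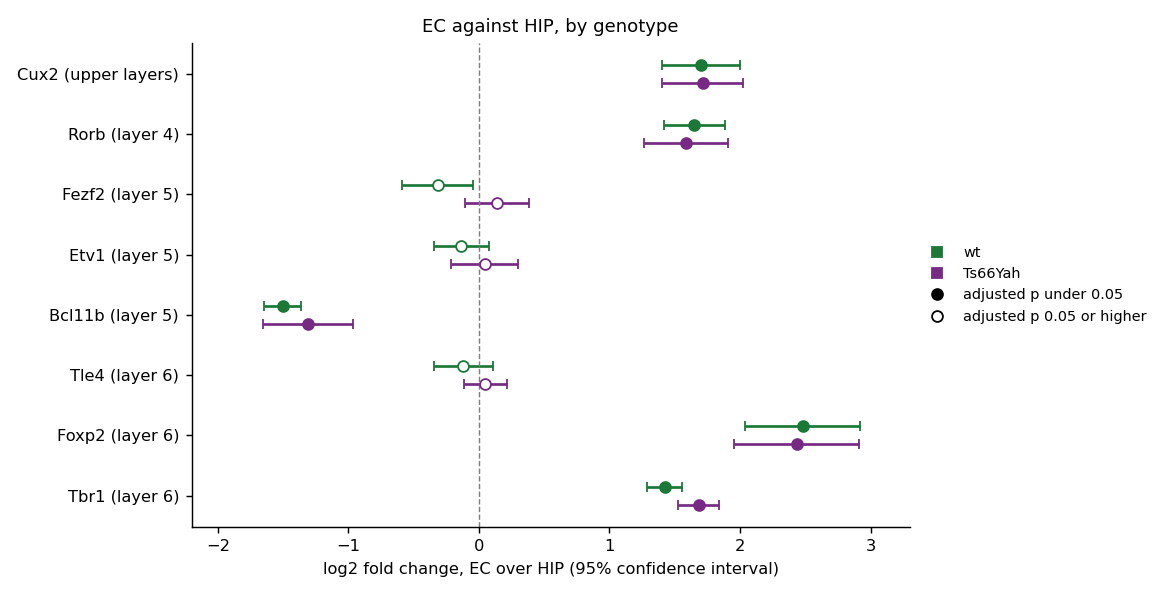
Log2 fold change of each member, EC over HIP (horizontal axis), with its 95% confidence interval, in wt (green) and Ts66Yah (purple); filled points have an adjusted p under 0.05. Cux2, Rorb, Foxp2 and Tbr1 lie right of 0 and Bcl11b left of it in both genotypes, while Etv1 and Tle4 lie near 0. Fezf2 lies left of 0 in wt (-0.32, interval -0.59 to -0.04) and right of it in Ts66Yah (0.14, -0.10 to 0.38), both points open.

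Markers of other cells also moved with region. The summed level of 6 oligodendrocyte markers was 7251 to 10740 CPM in the HIP and 1385 to 3469 CPM in the EC, and that of 6 choroid plexus markers was 114 to 3345 CPM against 10.5 to 43.9 CPM. Striatal markers, 10 in all, summed to 255 to 516 CPM in the EC and 163 to 198 CPM in the HIP, so they moved in the same direction as Foxp2. Thalamic markers, 8 in all, summed to 126 to 169 CPM in the HIP and 93.0 to 108 CPM in the EC, and 8 GABAergic interneuron markers to 788 to 944 CPM and 945 to 1133 CPM. The summed level of 6 glutamatergic neuron markers, of which Tbr1 is one, overlapped, at 5577 to 7048 CPM in the HIP and 6317 to 7522 CPM in the EC. The part of these cells in the region differences was not tested.

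Levels of different genes were compared per kilobase of exon. In the wt EC, Tbr1 was highest at 26.3 ± 1.56 CPM per kilobase (SD, n = 5). It was followed by Tle4 (9.35 ± 1.56), Cux2 (7.59 ± 1.61), Etv1 (6.76 ± 0.852), Fezf2 (6.63 ± 1.19) and Bcl11b (6.54 ± 0.482), and each of these 5 overlapped its neighbour in that order. Rorb (4.38 ± 0.584) and Foxp2 (0.694 ± 0.230) were lower, each without overlap with the gene before it. In the wt HIP the order was led by Bcl11b at 18.8 ± 0.921 CPM per kilobase, above Tle4 (10.3 ± 0.442) and Tbr1 (9.95 ± 0.639). Cux2 (2.36 ± 0.263), Rorb (1.42 ± 0.173) and Foxp2 (0.125 ± 0.0143) were the lowest there, each below the gene before it without overlap. In Ts66Yah, Tbr1 again led in the EC (27.2 ± 2.40, n = 6) and Bcl11b in the HIP (17.6 ± 1.19, n = 6).

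Layer balance was the mean log2 CPM of Cux2 and Rorb minus the mean log2 CPM of the 6 deep layer genes in the same library. Its zero has no meaning between genes of unequal length and abundance, but its differences between libraries can be read. It is a score over the 8 genes and carries no test, and in the HIP, which lacks these layers, it does not measure layers. In the EC the layer in which each gene is expressed was not measured here. In the wt EC the upper minus deep balance was 0.40, 0.42, 0.55, 0.06 and 0.71 (replicates 1 to 5), and in the Ts66Yah EC it was 0.63, -0.06, 0.28, -0.01, 0.75 and 0.22 (replicates 1 to 6). The genotypes overlapped over almost the whole range, with means of 0.43 ± 0.24 (SD, n = 5) and 0.30 ± 0.33 (SD, n = 6).

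In the HIP the same balance was -1.19, -0.76, -1.01, -0.98 and -0.78 in wt and -1.02, -0.76, -0.95, -0.80, -0.96 and -0.59 in Ts66Yah. The means were -0.94 ± 0.18 and -0.85 ± 0.16, and the genotypes again overlapped. Every HIP library was below every EC library. The difference between genotypes, Ts66Yah minus wt, was -0.13 in the EC and 0.10 in the HIP, both smaller than 1 SD of either group.

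**Figure D3:**
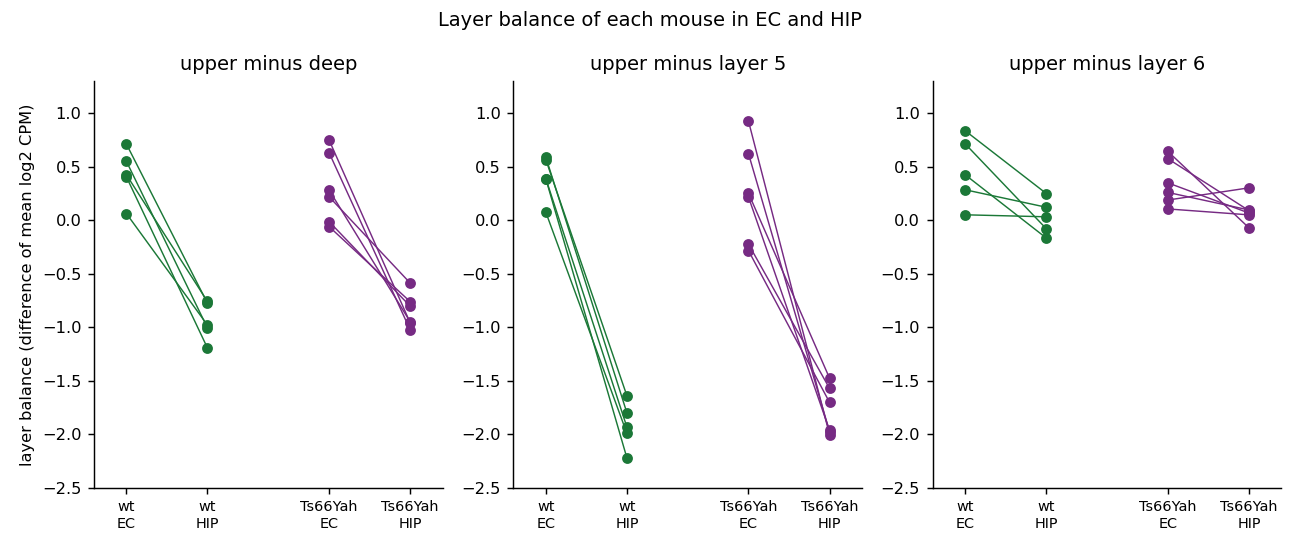
Layer balance of each mouse (vertical axis, difference of mean log2 CPM) in EC and HIP, with a line joining the libraries of 1 mouse, for the upper layer genes against all deep layer genes, the layer 5 genes and the layer 6 genes. The balance against all deep genes falls from EC to HIP in all 11 mice, most of it against the layer 5 genes.

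Within single mice, EC minus HIP balance was 1.04 to 1.60 in the 5 wt mice and 0.70 to 1.71 in the 6 Ts66Yah mice, with group differences of 1.37 and 1.15. Against the layer 5 genes alone the EC minus HIP difference was 2.32 in wt and 2.03 in Ts66Yah. Against the layer 6 genes alone it was 0.43 and 0.26. Within the deep layers, the layer 5 minus layer 6 balance was 0.06 ± 0.24 in the wt EC and 1.95 ± 0.13 in the wt HIP. Bcl11b carried part of this: leaving it out lowered the upper minus deep difference to 1.02 in wt and 0.78 in Ts66Yah, and leaving out Foxp2 raised it to 1.80 and 1.53.

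Among the EC libraries, the low balances belonged to wt replicate 4 and to Ts66Yah replicates 2 and 4, and the high ones to wt replicate 5 and Ts66Yah replicates 1 and 5. Bcl11b and Etv1 were both lowest in Ts66Yah EC replicate 5, at 32.9 and 59.7 CPM, and Rorb was lowest in Ts66Yah EC replicate 4, at 29.0 CPM, where Bcl11b was highest, at 76.8 CPM. Bcl11b varied more in the Ts66Yah EC (coefficient of variation 29.0%) than in the wt EC (7.36%), and the difference in spread was not tested. Reln encodes a protein made by layer 2 entorhinal neurons and some interneurons, and was picked after its values were seen. Like Bcl11b, it was lowest in Ts66Yah EC replicate 5 (100 CPM) and highest in replicate 4 (299 CPM). Reln stands in the upper layer list used below, so in these libraries it ran against the balance (0.75 in replicate 5 and -0.01 in replicate 4). The position of each dissection within the EC is not given in the sources used here.

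No member passed the threshold between the genotypes. In the EC, 0 of 8 were called by edgeR, beside 0.283% of the 17658 genes tested, 0 had an unadjusted p under 0.05, and DESeq2 and limma voom called 0. No member had groups without overlap, which 0.900% of genes had. The log2 fold changes, Ts66Yah over wt, ran from -0.14 (Rorb) to 0.11 (Bcl11b), 4 positive and 4 negative, with a median of 0.02 against -0.0045 over all genes. The narrowest 95% confidence interval was that of Tbr1, -0.11 to 0.19, and the widest that of Foxp2, -0.65 to 0.39. A Foxp2 difference inside that interval was not resolved. Without the 2 libraries with raised Adora2a, edgeR again called 0 of 8 members, and the log2 fold change of Foxp2 was again -0.13.

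In the EC, Cux2 averaged 76.5 ± 16.2 CPM in wt and 73.7 ± 14.9 CPM in Ts66Yah, and its fold was 0.959 (95% confidence interval 0.763 to 1.21). Rorb averaged 48.5 ± 6.47 and 44.4 ± 11.7 CPM, a fold of 0.908 (0.713 to 1.16). Bcl11b averaged 53.1 ± 3.91 and 57.6 ± 16.7 CPM, a fold of 1.08 (0.829 to 1.40). The wt and Ts66Yah EC values overlapped for all 8 members. For Tle4 the fold was 1.05 (0.887 to 1.25).

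**Figure D4:**
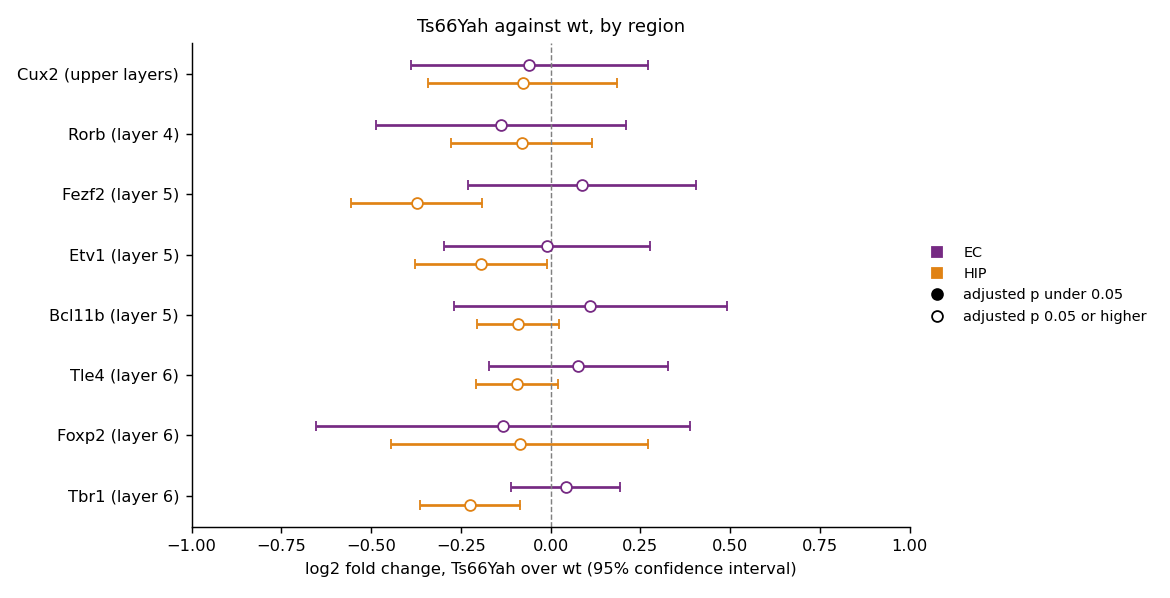
Log2 fold change of each member, Ts66Yah over wt (horizontal axis), with its 95% confidence interval, in the EC (purple) and the HIP (orange); open points have an adjusted p of 0.05 or higher. All 16 points are open, the EC points lie on both sides of 0, and the 8 HIP points lie left of 0.

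In the HIP, 0 of 8 members were called by edgeR, beside 0.591% of the 18452 genes tested. Of the 8, 3 had an unadjusted p under 0.05 in edgeR, limma voom called 0 and DESeq2 called 1. Of the 18452 genes tested, 2188 had an unadjusted p under 0.05 in edgeR, limma voom called 111 and DESeq2 called 357. No member's groups were without overlap, which 1.94% of genes showed. All 8 log2 fold changes were negative, with a median of -0.09 against 1.4e-05 over all genes tested. They were not independent, since they come from the same libraries.

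The largest of these was that of Fezf2, whose wt HIP values of 20.9 to 29.2 CPM met the Ts66Yah values of 17.7 to 21.3 CPM in a narrow overlap. Among the wt libraries, only replicate 2 was below the highest Ts66Yah library. The log2 fold change was -0.37 ± 0.08 (fold 0.772, edgeR adjusted p = 0.0729). DESeq2 gave an adjusted p of 0.00424 for the same change, and over 19 alternatives the adjusted p ran from 0.00424 to 0.311. Without wt HIP replicate 2 the log2 fold change was -0.44 with an adjusted p of 0.0164.

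Tbr1 came next, with wt HIP values of 50.4 to 59.8 CPM and Ts66Yah HIP values of 39.7 to 51.4 CPM. Those ranges overlapped by a single wt library, replicate 5. The log2 fold change was -0.23 ± 0.06 (edgeR adjusted p = 0.175). Etv1 was at 99.9 ± 10.2 CPM in wt and 86.9 ± 10.3 CPM in Ts66Yah, a log2 fold change of -0.19 ± 0.09 (adjusted p = 0.397). For Bcl11b and Tle4 it was -0.09 each (adjusted p = 0.523 and 0.513). For Cux2, Rorb and Foxp2 it was -0.08, -0.08 and -0.09, with adjusted p-values of 0.859, 0.789 and 0.890.

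Whether trisomy acted differently in the 2 regions was asked with an interaction term over all 22 libraries. It called 0 of 8 members and 0% of the 19074 genes tested, while 388 genes and 2 members had an unadjusted p under 0.05 and DESeq2 called 0 genes. The 2 members were Fezf2 (interaction log2 fold change 0.46 ± 0.18) and Tbr1 (0.27 ± 0.10), whose change with trisomy was higher in the EC than in the HIP. Both had an adjusted p of 0.99996, so the changes in EC and HIP were not shown to differ for any member.

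Levels of the members were also set against each other across the 11 EC libraries, after the genotype mean was subtracted. Of 28 pairs, 3 passed an adjusted p of 0.05 by Pearson's r in permutation tests, 1 by Spearman's rho, and r ran from -0.65 to 0.90. No share over pairs of other genes is given here, so these counts were not judged against a background. Without subtraction of the genotype mean only 1 pair passed. The values of 1 library share its depth scaling, so the pairs are not independent of one another. In the 11 HIP libraries 0 of 28 pairs passed, 2 had an unadjusted permutation p under 0.05 by Pearson's r and 1 by Spearman's rho, and the smallest adjusted permutation p was 0.199.

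Cux2 and Fezf2, of the upper layers and layer 5, rose and fell together in the EC (r = 0.90, adjusted permutation p = 0.0042, rho = 0.92, adjusted permutation p = 0.00476). Without the 2 libraries farthest from the median of Cux2, r was 0.76. Both were low in wt replicate 4 and high in Ts66Yah replicate 6. Without the libraries with raised Adora2a r was 0.86 over 9 libraries (adjusted permutation p = 0.0206). There rho was 0.85 with an adjusted permutation p of 0.0886, which did not pass. Without 2 more of those 9 libraries, those farthest from the median of Cux2, r was 0.55. Etv1 and Bcl11b, both of layer 5, also moved together (r = 0.81, adjusted permutation p = 0.0394, rho = 0.74, adjusted permutation p = 0.112). That relation fell to r = 0.49 without the 2 libraries farthest from the median of Etv1. Without the libraries with raised Adora2a r was 0.89 over 9 libraries (adjusted permutation p = 0.0206). In those 9 libraries rho was 0.85 and again did not pass (adjusted permutation p = 0.0886). Without 2 more of them, those farthest from the median of Etv1, r was 0.79.

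Foxp2 and Tbr1, both of layer 6, had r = 0.82 (adjusted permutation p = 0.027) and rho = 0.62 (adjusted permutation p = 0.149). Here r was 0.55 without the 2 libraries farthest from the median of Foxp2. The pair was not among the 2 pairs called by Pearson's r once the libraries with raised Adora2a were left out. The strongest negative relations were those of Rorb with Bcl11b (r = -0.65), Cux2 with Etv1 (r = -0.64) and Rorb with Etv1 (r = -0.62). Their adjusted permutation p-values were 0.159, 0.159 and 0.162, so none passed, and by Spearman's rho the adjusted permutation p of Cux2 with Etv1 was 0.0813.

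**Figure D5:**
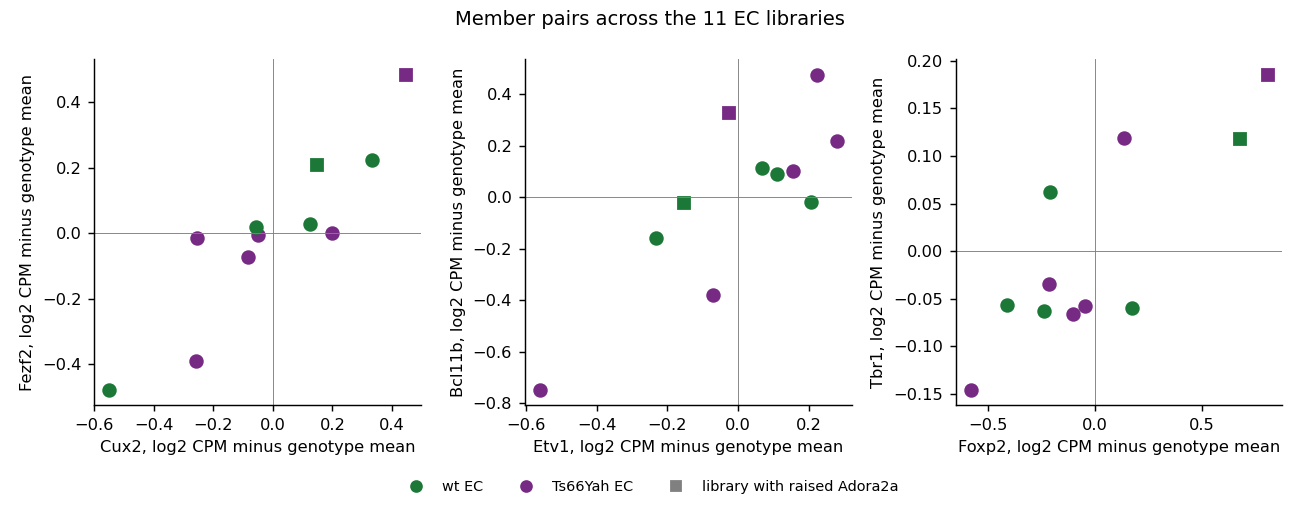
The 3 pairs of members called by Pearson's r across the 11 EC libraries (1 without subtraction of the genotype mean), each axis the log2 CPM of a gene minus its genotype mean, wt in green and Ts66Yah in purple, with squares for the 2 libraries with raised Adora2a. Cux2 and Fezf2 follow each other over the whole range, while the Foxp2 and Tbr1 pair has a square at its upper right end.

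The genes most like each member over the same 11 EC libraries were found among 14741 genes that averaged 1 CPM or more. For Cux2 they were D630003M21Rik (r = 0.947), Ier5l (0.945) and N4bp3 (0.944), and for Rorb they were Etv6 (0.966), Tshz1 (0.945) and Efna5 (0.944). For Fezf2 they were Cit (0.971), Axin1 (0.935) and Zbtb5 (0.923), for Etv1 they were Ndst4 (0.982), Lmo7 (0.973) and Crim1 (0.973), and for Bcl11b they were Gpr45 (0.953), Hcn3 (0.949) and Adgra1 (0.933). For Tle4 they were Cntnap4 (0.929), Zfpm2 (0.921) and Idi1 (0.909), for Foxp2 they were BC002059 (0.950), Bcor (0.922) and Abracl (0.918), and for Tbr1 they were Gm3571 (0.961), Hs3st2 (0.910) and Cnep1r1 (0.910). Each is the top of a long ranking over few libraries, so a high r was bound to occur and carries no test.

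Other layer genes were followed in 4 lists. Of 16 upper layer genes, 13 were called higher in wt EC than in wt HIP and 2 lower, with a median log2 fold change of 1.09. Over all genes tested in wt, 23.4% were called up and 24.3% down in the EC relative to the HIP, with a median of 0.01, and these are the background of all 4 lists. The largest were Otof, a synaptic vesicle protein (3.29 ± 0.21, adjusted p = 9.41e-08), and Mef2c, an activity-dependent factor (2.45 ± 0.08, adjusted p = 4.34e-10). Higher in the HIP were the POU factors Pou3f1 (-2.74 ± 0.15, adjusted p = 2.72e-08) and Pou3f3 (-0.81 ± 0.08, adjusted p = 5.77e-06).

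Of 14 layer 5 genes, 8 were higher in the EC and 5 in the HIP in wt, with a median of 0.44. Qrfpr (2.04) and Tmem91 (1.85) led in the EC, and Tshz2 (-1.85) and Hsd11b1 (-1.66) in the HIP. Of 16 layer 6 and subplate genes, 12 were higher in the EC and 4 in the HIP, with a median of 0.87. Oprk1, the kappa opioid receptor (3.73), and Ccn2, a subplate marker (2.49), led in the EC, and Zfpm2 (-1.72) and Tle1 (-0.85) in the HIP.

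Of 34 other projection neuron regulators 32 were tested, and of these 16 were higher in the EC and 13 in the HIP in wt, with a median of 0.28. Mef2c (2.45) led in the EC, and Tshz2 (-1.85) and Neurod6 (-1.79), a factor of hippocampal pyramidal neurons, in the HIP. The lists share genes, among them Mef2c and Tshz2. Beside these, the members' own split was 4 up and 1 down in the EC relative to the HIP.

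Between genotypes no gene of the 4 lists was called by edgeR in either region. In the EC the genes with an unadjusted p under 0.05 in edgeR numbered 0, 1, 1 and 2 in the upper layer, layer 5, layer 6 and regulator lists, and DESeq2 and limma voom called 0 in each. The lists had 16, 14, 16 and 32 genes tested in the EC, where 1103 of all 17658 genes were under that p. In the HIP they numbered 2, 3, 5 and 7 of 16, 14, 16 and 33 genes tested, where 2188 of all 18452 genes were under it. DESeq2 called Tshz2 and S100b among the layer 5 genes and Tshz2 and Neurod1 among the regulators, and limma voom called Tshz2. The HIP log2 fold change of Tshz2, a teashirt zinc finger factor, was -0.85 ± 0.18, with an edgeR adjusted p of 0.0565, and the gene is named here because other tools called it. The medians in the EC were -0.02, 0.05, -0.0061 and -0.02, and in the HIP 0.01, -0.04, -0.13 and -0.09, in the same order of lists.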

How the data were processed

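RNA was sequenced as 50-base single-end reads on an Illumina HiSeq. Per the labels and the study's methods, the authors aligned reads with Hisat2 to GRCm38 (mm10; bcl2fastq 2.17.1.14 is named in the submitters' processing notes) and counted them with HTSeq-count over Ensembl gene models, and they deposited 1 table of raw read counts for 55385 genes. Aligner versions, the strand setting and the treatment of reads with several matches are not given in the sources used here. The labels name a stranded mRNA kit and the methods a total RNA kit with ribosomal depletion. Deposited tables of the authors' own comparisons, which hold fold changes and p-values, were not used.

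Of the gene identifiers, 55144 matched GENCODE M21, which gave symbols, positions and exon lengths. Counts were scaled with TMM factors, filtered with filterByExpr and tested with edgeR 4.0.16 (quasi-likelihood F test, R 4.3.3) with Benjamini-Hochberg adjustment over all genes tested and a threshold of 0.05. SE is the log2 fold change divided by the square root of F. CPM values are TMM-scaled, and a prior count of 2 was added before logs. Comparisons between genotypes used the 11 libraries of a region, those between regions the libraries of a genotype, and the interaction all 22. The main region and interaction fits did not pair the EC and HIP libraries of a mouse. The mouse was a block only in an alternative. Correlations used 100000 permutations. The scripts were tested on simulated data.

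Alternatives used DESeq2 1.42.0, limma 3.58.1 voom, RLE factors, other filters, blocks and each library left out. Leaving out the 2 EC libraries with raised striatal markers was chosen after the data were seen. Replicates are separate mice, and the lowest chi-square per gene between any pair in a group was 9.62, so no pair was a repeated library. EC and HIP libraries of the same mouse, paired by the animal number in the labels, deviated together from their group means (correlation 0.20 to 0.61 in 11 of 11 mice).

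Named genes were the 8 members, the list genes called between genotypes, in wt the 2 list genes higher in each region with the largest change, and for each member the 3 most correlated genes. One list gene that this rule names is not reported here. The members and lists were chosen with earlier results of these data known. Labels give no extraction or sequencing date.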

Additional observations from a re-analysis of the deposited data

Results flagged for a closer look

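One library stood apart by Dixon's test at the 95% level among 48 groups tested (member levels and layer balances in each of the 4 groups of libraries), of which chance flags about 1 in 20. Bcl11b in Ts66Yah HIP replicate 4 was at 124 CPM (log2 CPM 6.95), below the other 5 libraries of its group, at 142 to 151 CPM. Its Bcl11b level was still above that of every EC library.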

How the results depend on the processing

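Of the recomputed member values, 742 kept their direction and their side of the threshold, 33 changed sign and 9 passed the threshold where they had not before. The 9 were all Fezf2. Most sign changes were of values near 0. With DESeq2 the number of members called between genotypes in the HIP was 1 (Fezf2), and leaving out single libraries gave 0 to 1, with 1 only without wt HIP replicate 2. In the region comparison of wt, 6 members were called in place of 5 in several alternatives, the sixth being Fezf2. These were DESeq2, the mouse as a block and no filter on low counts. The others left out wt EC replicate 2, wt EC replicate 5 or wt HIP replicate 2.

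The same replicate number in wt and Ts66Yah stands for different mice, and whether such mice share anything else is not given in the sample labels. Deviations of same-numbered libraries correlated at 0.013 to 0.28 in the EC and 0.0054 to 0.12 in the HIP. The correlation was over 0.1 in 2 of 5 pairs in each region. In the EC 3 of 5 correlated best with their own number, and in the HIP 1 of 5. The fit with that number as a replicate block also left out Ts66Yah replicate 6. In it the log2 fold changes in the EC were -0.016 for Fezf2 and -0.0094 for Bcl11b. No member was called in either region, and the genes called in the HIP fell from 109 to 61. Leaving out Ts66Yah replicate 6 alone, without a block, gave -0.027 for Fezf2 in the EC and 76 genes called in the HIP. With the mouse as a block, the EC and HIP pairing changed no member call other than Fezf2 in wt. The fit with mice blocked by the range of their animal number also left out wt replicate 1. In it Foxp2 was at 0.016 in the EC and 68 genes were called in the HIP, against 84 without wt replicate 1 and no block. Without the EC libraries with raised striatal markers, the region difference of Tle4 in Ts66Yah was -0.011, the interaction of Cux2 was -0.047, and 30 genes were called between genotypes in the EC in place of 50. DESeq2 called 107 genes in the EC and 357 in the HIP, and 1 fit over all 22 libraries called 79 in the EC.

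Leaving out each library in turn, the genotype log2 fold change in the EC ran from -0.16 to 0.020 for Cux2 (positive without wt replicate 5), from -0.027 to 0.16 for Fezf2 (negative without Ts66Yah replicate 6), from -0.072 to 0.081 for Etv1 and from -0.34 to 0.077 for Foxp2, positive when wt replicate 2 was dropped. In the HIP that of Foxp2 ran from -0.17 to 0.018, positive when Ts66Yah replicate 5 was dropped. The region difference in Ts66Yah ran from -0.012 to 0.14 for Etv1 and from -0.011 to 0.087 for Tle4. The interaction ran from -0.088 to 0.10 for Cux2, from -0.16 to 0.043 for Rorb and from -0.25 to 0.17 for Foxp2. None of these values had passed the test.

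The EC minus HIP layer balance of wt was 1.62 from summed CPM per kilobase, 1.02 without Bcl11b, 1.80 without Foxp2 and 1.60 without Tbr1. In Ts66Yah it was 0.78 without Bcl11b and 1.53 without Foxp2. Without subtraction of the genotype mean, 1 pair of members was called across the EC libraries. Groups of 5 and 6 mice left 95% confidence intervals of the EC genotype differences that exclude 0 for no member, and that of Foxp2, with 254 to 586 reads in an EC library, was the widest. The cause of each of these changes was not tested.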
